A study of Mus musculus with 16 samples.

Results

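The comparison described here was the effect of angiotensin II (AngII) on the transcriptome of the left atrium of old female mice, averaged over mice with and without ovaries. It used 16 of the 16 libraries of the series. The 8 libraries from AngII-treated mice (4 AngII, 4 Ovx + AngII) were set against the 8 libraries from untreated mice (4 Ctrl, 4 Ovx), with ovariectomy as a blocking term. All mice were C57BL6/J females aged 24 months. Ctrl mice kept their ovaries and were not treated. AngII mice kept their ovaries and received AngII for the last 4 weeks of life from a subcutaneous osmotic minipump. Ovx mice had lost their ovaries at the age of 12 months and were not treated, and Ovx + AngII mice were ovariectomized at that same age and received the infusion. The study lists among its limitations a sham operation with no vehicle-filled pump, and states that in earlier studies this made no difference to the heart. In these libraries, effects of the peptide and of carrying a pump cannot be told apart. RNA came from the whole left atrium, so that each library was a mixture of muscle, stromal, vascular and blood cells.

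Angiotensin II is the effector peptide of the renin-angiotensin system. It raises blood pressure and acts on cardiomyocytes, fibroblasts and vessels through its type 1 receptor, a G protein-coupled receptor. In the atrium, which is stretched when filling pressure rises, sustained AngII is a textbook stimulus for natriuretic peptide synthesis, for re-expression of muscle genes of the fetal heart and for deposition of extracellular matrix by fibroblasts. The atrial muscle itself depends on a set of potassium channels and on mitochondrial oxidation of fatty acids, and genes of both kinds were examined beside those of the matrix.

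Values are normalised read counts per gene, as deposited. Column totals ranged from 19592551 to 21513796 in mice with ovaries and from 17598222 to 18985762 in Ovx mice, a difference that the ovariectomy term absorbs. The labelled tissue was checked first. Over the 9 atrial cardiomyocyte markers, summed values were 1239470 to 1611140 in untreated libraries and 1508830 to 1862980 in AngII libraries. This sum includes Nppa, which rose with AngII (below). The 7 ventricular markers summed to 1159 to 2365 in untreated and 1383 to 2372 in AngII libraries. Among them, only Irx4 had a mean under 1. The 7 lung epithelium markers summed to 7.65 to 25.6 in untreated and 6.62 to 32.1 in AngII libraries. Of them, only the surfactant gene Sftpb was listed at 0 in all 16. In 2 libraries haemoglobin genes stood out, at 0.970% of the total in Ctrl 4 and 1.46% in AngII 4, against 0.061% to 0.349% in the others.

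Ctrl 4 needs a further remark. The heading line of the deposited table places this column under the AngII heading, whereas the sample's label gives it as an untreated control. The label was followed. Its mean correlation with the other Ctrl libraries was 0.945, below the 0.963 to 0.980 of all other libraries within their own groups. Its summed marker values were 35609 for the 12 macrophage markers and 2338 for the 10 of monocytes and neutrophils, against 11848 to 24818 and 320.1 to 704 in the other 15 libraries. Summed values of the 12 fibroblast markers were 89112 in Ctrl 4 and 100702 to 154458 elsewhere. The 10 activated fibroblast markers summed to 11376 in it and to 5235 to 6865 in the other 3 Ctrl libraries. Counts that move by more than 1.5 times when Ctrl 4 is left out are therefore given both ways, a comparison added after the data had been seen.

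AngII changed 2572 of 14273 genes tested past an adjusted p of 0.05 (18.0%), 1324 higher (9.28%) and 1248 lower (8.74%). A gene was called when, in addition, its log2 fold change was at least 1 in size, and 288 genes (2.02%) met both thresholds. Of these, 153 were higher (1.07%) and 135 lower (0.946%) with AngII. Small changes dominated, since 2284 of the 2572 genes (88.8%) changed by less than 2-fold. The median log2 fold change of all genes was -0.0058. When the values were rescaled to column totals, 1037 genes were higher and 1715 lower, so that the higher share fell from 51.5% to 37.7%. The balance of small rises and falls thus depended on the scaling, which moved the median of all genes to -0.038.

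Without Ctrl 4, 3697 genes passed the adjusted p and 377 were called (198 higher, 179 lower). They included 278 of the 288 genes (96.5%) called with all libraries. For 225 genes (1.58%) the 8 AngII values and the 8 untreated values did not overlap, and this count was 569 (3.99%) without Ctrl 4. Ctrl 4 was the untreated library nearest to the AngII side for 54.9% of the genes called higher and for 50.4% of those called lower. Over all genes, whatever their direction, it was the highest untreated library for 30.4%. Each untreated Ovx library, with a smaller column total, was the highest for 2.53% to 4.38%. On the other side, AngII 4 was the AngII library nearest to the untreated ones for 35.3% and 41.5%. Over all genes it was the lowest AngII library for 7.59%, and each Ovx + AngII library was the lowest for 16.4% to 20.3%. These all-gene shares carry the difference in column totals. They are no baseline for genes called lower, where the opposite extremes were taken. AngII 4 and Ctrl 4 were the libraries richest in haemoglobin, with 400 genes called when both were left out. When each library was left out in turn, 243 of the 288 called genes stayed past the adjusted p in all 16 fits. The 8 libraries of mice with ovaries, fitted alone, gave 2 genes past the adjusted p, both called, and the 8 Ovx libraries alone gave 2496 past it and 410 called. The fit of mice with ovaries alone holds Ctrl 4 and was not repeated without it. In a fit of the 4 group means over all libraries, AngII against Ctrl gave 423 genes past the adjusted p, and 1496 without Ctrl 4. Ovx + AngII against Ovx gave 1459 and 2018 in the same fits.

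**Figure D1:**
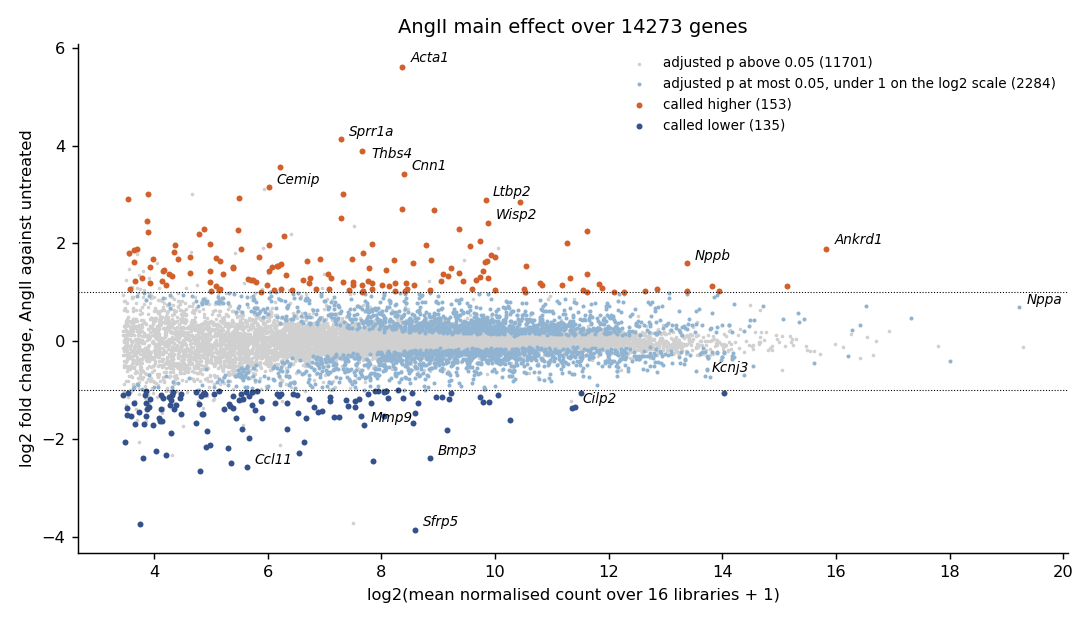
Log2 fold change with AngII (vertical axis) against log2 of the mean normalised count plus 1 (horizontal axis) for each of the 14273 genes tested, with called genes in orange (higher) and dark blue (lower) and those past the adjusted p alone in pale blue. The 153 genes called higher and the 135 called lower lay on both sides of a cloud centred near 0, and most genes past the adjusted p alone lay within a log2 fold change of 1.

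Leading changes were taken from the called genes without overlap between AngII and untreated libraries and with mean values from 50 upwards (39 higher and 14 lower). The largest rise was that of Cemip, whose product binds and depolymerises hyaluronan. Its normalised counts were 5.87 to 21.0 in untreated libraries (median 10.2) and 36.7 to 178 in AngII libraries (median 136), a log2 fold change of 3.15 ± 0.35 (SE, adjusted p = 3.61e-05). The gene lies on chromosome 7 (83932857 to 84086693, mm10). All AngII libraries stood above all untreated ones, the lowest of them being AngII 4. Wisp2, a matricellular protein of the CCN family also named Ccn5, ranged from 166 to 655 (median 273) and from 1061 to 2492 (median 1573), a log2 fold change of 2.42 ± 0.20 (adjusted p = 2.98e-06).

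Lrp8, a reelin and apolipoprotein E receptor, had values of 206 to 490.3 (median 339) in untreated and 1096 to 2246 (median 1199) in AngII libraries, with a log2 fold change of 2.05 ± 0.17 (adjusted p = 2.98e-06). The rise was thus more than 2-fold between the highest untreated and the lowest AngII library. Itgbl1, a secreted protein related to integrin beta chains, went from 317 to 569 (median 438) to 966 to 1909 (median 1389), a log2 fold change of 1.64 ± 0.13 (adjusted p = 2.98e-06). Tnfrsf12a, the receptor of the cytokine TWEAK, ranged from 281 to 649 and from 825 to 2507, and its log2 fold change was 1.77 ± 0.22 (adjusted p = 7.81e-05). Other members of the leading rises were Ankrd23, Ankrd1 and Col12a1, described below with their families, Syt12, a synaptotagmin (log2 fold change 1.80), Map1a, a microtubule-associated protein (1.72), and Nlrc3, an intracellular receptor that restrains innate immune signalling (1.67).

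**Figure D2:**
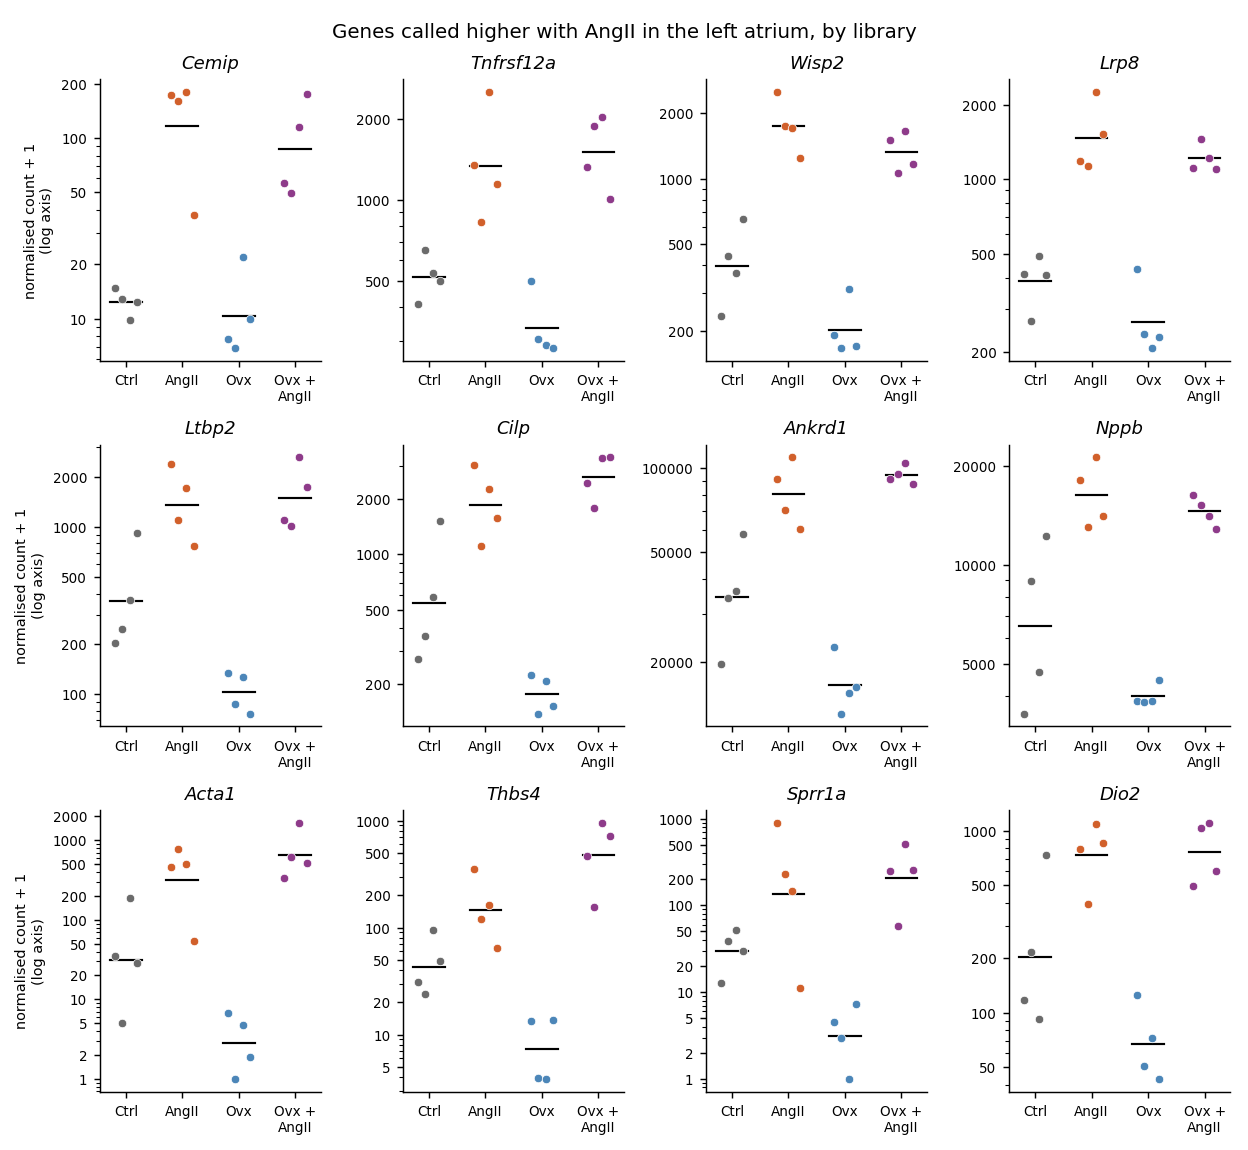
Normalised counts plus 1 (log axis) in each library of the Ctrl, AngII, Ovx and Ovx + AngII groups for 12 genes called higher, 1 point per library, with black lines at the geometric mean of each group. Some genes separated fully, as Cemip did (lowest AngII library 36.7, highest untreated 21.0), whereas others such as Acta1 overlapped (53.4 and 188).

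On the falling side, the largest change in this class was that of Mmp9, the gelatinase of neutrophils and macrophages, on chromosome 2 (164940326 to 164955850, mm10). Its values were 201 to 396 (median 336) in untreated and 60.3 to 149 (median 90.4) in AngII libraries, a log2 fold change of -1.72 ± 0.20 (adjusted p = 4.11e-05). Mmp9 thus moved against most matrix proteases that changed. Opcml, a cell adhesion protein anchored to the membrane by a lipid, fell from 425 to 898 (median 514) to 112 to 354 (median 201), a log2 fold change of -1.46 ± 0.20 (adjusted p = 0.00014). Tmod4, a tropomodulin that caps actin filaments in striated muscle, fell from 111 to 238 (median 167) to 34.6 to 89.9 (median 65.6), a log2 fold change of -1.46 ± 0.19 (adjusted p = 9.29e-05).

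Tbc1d10c, known in the mouse heart as carabin, an inhibitor of calcineurin and Ras, fell from 198 to 270.3 (median 241) to 58.3 to 166 (median 98.2), a log2 fold change of -1.32 ± 0.15 (adjusted p = 3.61e-05). Its untreated values were tightly grouped and the AngII values lay wholly below them. Enpp2, or autotaxin, which makes lysophosphatidic acid, fell from 1022 to 1412 (median 1218) to 279 to 835 (median 587), a log2 fold change of -1.25 ± 0.20 (adjusted p = 0.000474). Slc7a7, the light chain of a cationic amino acid exporter, fell by 1.25 on the log2 scale and Slc1a7, a glutamate transporter, by 1.22. The other 5 were Plb1, a phospholipase (log2 fold change -1.48), Gfra4, a GDNF family receptor (-1.27), Adam11, a disintegrin without protease activity (-1.14), Mrgprh, an orphan G protein-coupled receptor (-1.07), and Nat8l, the N-acetylaspartate synthase (-1.06).

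**Figure D3:**
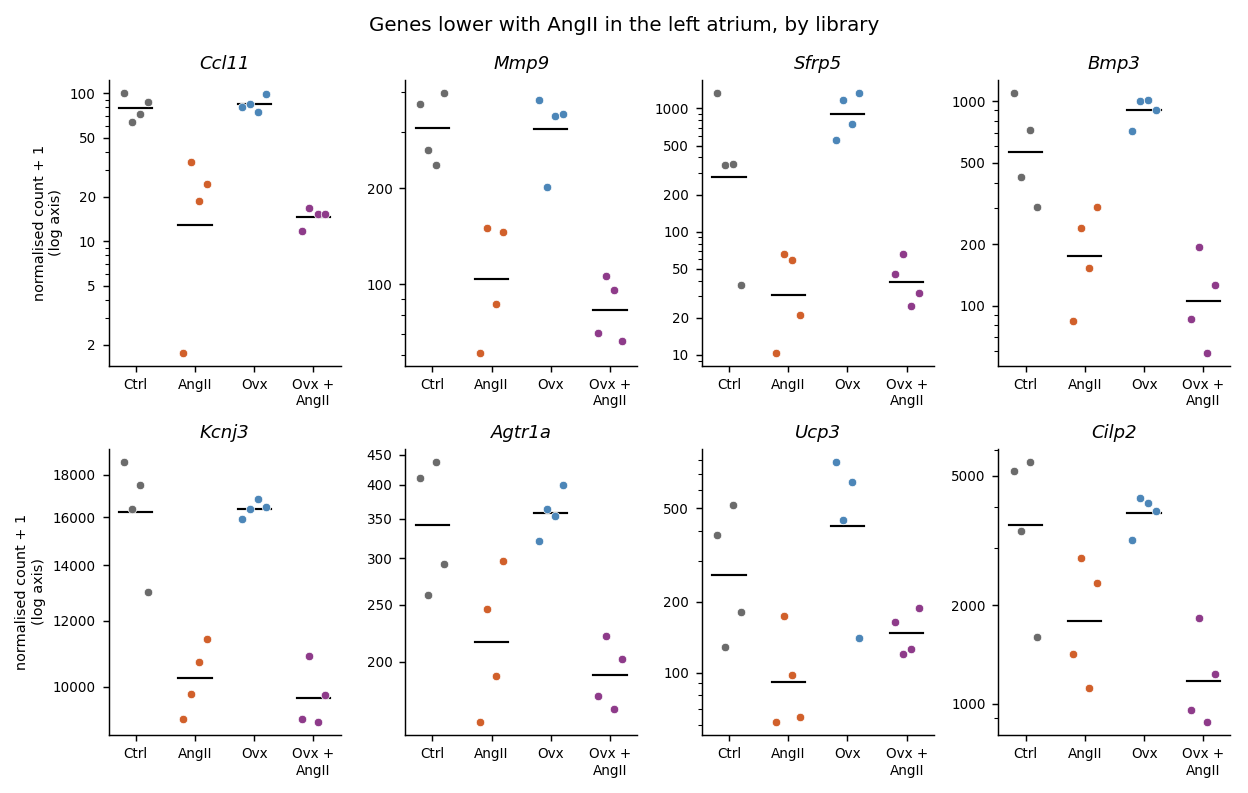
Normalised counts plus 1 (log axis) in each library of the 4 groups for 8 genes that fell with AngII, 1 point per library, with black lines at the geometric mean of each group. Mmp9 (highest AngII library 149, lowest untreated 201) and Ccl11 (33.1 and 62.4) separated fully, whereas Sfrp5 (65.3 and 35.7) overlapped.

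The smallest p-value of the comparison belonged to a change of moderate size. Serpinf1, which encodes pigment epithelium-derived factor, a secreted serpin, was at 1169.9 to 1750.4 (median 1327) in untreated and 2028 to 2866 (median 2230.4) in AngII libraries, a log2 fold change of 0.76 ± 0.06 (adjusted p = 1.38e-06). Aldh16a1, an aldehyde dehydrogenase family member, fell from 699 to 842 (median 767) to 454 to 560.3 (median 499), a log2 fold change of -0.63 ± 0.05 (adjusted p = 2.98e-06). Both genes separated the 8 AngII from the 8 untreated libraries without overlap. Abundant genes with small, well-separated changes included Prss23, a serine protease (log2 fold change 0.82), Gpm6b, a membrane glycoprotein (0.82), Pls3, an actin-bundling plastin (0.66), and Mfge8, a secreted bridge between apoptotic cells and phagocytes (0.54).

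Most natriuretic peptide genes and genes of the fetal and stressed heart rose. Of 17 measured members, 11 rose and none fell past the adjusted p, 9 of them were called, and the median log2 fold change was 1.06 against -0.0058 over all genes. For this and every list below, the shares over all genes were 9.28% higher, 8.74% lower, 1.07% called higher and 0.946% called lower. Without Ctrl 4, or without AngII 3, 1 member fell. Nppa, the atrial natriuretic peptide gene (chromosome 4, 148000722 to 148002074), was at 362896 to 561199 (median 475960.0) in untreated and 665959 to 872076 (median 762619) in AngII libraries. The groups did not overlap, and the log2 fold change was 0.69 ± 0.16 (adjusted p = 0.00709), or 1.62-fold. Nppb, the B-type natriuretic peptide gene, was at 3528 to 12207 (median 4167) and 12890.1 to 21216 (median 14627), a log2 fold change of 1.59 ± 0.20 (adjusted p = 8.13e-05). The groups came close only at Ctrl 4, the highest untreated library, the next being Ctrl 2 at 8897. Without Ctrl 4 the log2 fold change was 1.75. Exact permutation of the AngII labels within each background (4900 arrangements, two-sided) gave the smallest p it allows, 0.000408, for both peptides.

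Ankrd1, the titin-binding cardiac ankyrin repeat protein (chromosome 19, 36111965 to 36119844), was at 13069.8 to 58218 (median 21169) in untreated and 60541 to 109629 (median 91499) in AngII libraries, a log2 fold change of 1.87 ± 0.24 (adjusted p = 7.81e-05). Its relative Ankrd23 went from 602 to 1319 (median 875) to 1331 to 6555 (median 3835), a log2 fold change of 2.001 ± 0.28 (adjusted p = 0.000151). Both separated the treated from the untreated libraries, although by a narrow margin at the edges. Acta1, skeletal alpha-actin, which the fetal heart expresses, was at 0 to 188 (median 4.88) in untreated and 53.4 to 1669 (median 509) in AngII libraries, a log2 fold change of 5.60 ± 0.86 (adjusted p = 0.000362). This was the widest range of any member, the groups overlapped, and reads of near-identical actin copies may have been divided among them.

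Sprr1a, a small proline-rich protein induced in stressed cardiomyocytes, was at 0 to 50.5 (median 9.07) and 10.1 to 896 (median 239), a log2 fold change of 4.13 ± 0.84 (adjusted p = 0.00279). Tnnt3, the fast skeletal troponin T, was at 13.3 to 71.2 (median 25.8) and 65.1 to 554 (median 268), a log2 fold change of 3.01 ± 0.37 (adjusted p = 6.8e-05). For both genes the treated and untreated ranges overlapped at their ends. Xirp2, an actin-binding protein of the intercalated disc, and Uchl1, a ubiquitin hydrolase, had log2 fold changes of 1.07 and 1.06. Myh7, the slow myosin heavy chain, was at 104 to 296 (median 153) and 153 to 699 (median 396), a log2 fold change of 1.13 ± 0.33 (adjusted p = 0.0266, exact permutation p = 0.0176). This call was less secure, since it was lost in 7 of the 16 fits with 1 library left out (without AngII 1, without Ovx 2, 3 or 4, or without Ovx + AngII 1, 3 or 4) and reached an adjusted p of at most 0.0581 there. Myh6, the fast cardiac isoform, had a log2 fold change of -0.13 (adjusted p = 0.675).

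Sequence before the transcription start was examined for the called members of this list, since several of them moved together. RefSeq promoters were at hand for 11338 of the 14273 genes tested, 112 of the 153 called higher and 92 of the 135 called lower, and the 250 bases before the start were searched on both strands. The motif CATTCC (M-CAT, the site of TEAD factors, GGAATG on the other strand) was present in 22.3% of the promoters called higher, 15.2% of those called lower and 10.7% of all. The motif TGANTCA (AP-1) was present in 9.82%, 6.52% and 4.38%, and the CArG box, the site of serum response factor, in 4.46%, 1.09% and 1.18%. For the cyclic AMP response element TGACGTCA the shares were 1.79%, 1.09% and 2.65%, for the MEF2 site 1.79%, 5.43% and 1.78%, and for the E-box CACGTG 6.25%, 8.70% and 8.22%. These shares are a description without a test, and a match is not evidence of binding.

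Among the 9 called stress genes, 8 had a promoter in the table, 4 of which held the M-CAT motif (Acta1, Ankrd1, Nppb and Myh7) and 2 of which held the AP-1 motif (Sprr1a and Xirp2). Their stretches are shown because they are the matches behind that count, from RefSeq on GRCm38.p6, written 5′ to 3′ on the strand of the gene with each motif in capitals. The first holds a CArG box and, further along, an M-CAT motif. A CArG box also stood before 2 members of the list that were not called, Fhl1 and Fhl2, and before Actc1, not called either. GENCODE places the start of Nppb and of 1 transcript of Ankrd1 upstream of the stretches shown for them.
Acta1, chr8:123894804-123894860, minus strand: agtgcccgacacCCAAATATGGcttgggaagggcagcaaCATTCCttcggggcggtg
Ankrd1, chr19:36120037-36120066, minus strand: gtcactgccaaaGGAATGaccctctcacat
Ankrd1, chr19:36119950-36119979, minus strand: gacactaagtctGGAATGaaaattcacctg
Nppb, chr4:147985783-147985812, plus strand: gctcagccggcaGGAATGcagctgataaat
Myh7, chr14:54994810-54994839, minus strand: ctagtgagccgtGGAATGttagagatattt
Sprr1a, chr3:92485979-92486039, minus strand: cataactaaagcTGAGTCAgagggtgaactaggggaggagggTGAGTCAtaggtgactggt
Xirp2, chr2:67445883-67445913, plus strand: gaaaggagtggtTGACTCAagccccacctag

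The same 6 letters also occurred before genes outside the stress list and before a gene that did not pass the test. Thbs4, a matricellular gene with one of the largest rises, held them in tandem, and Dio2, the type 2 deiodinase, held them as a single copy. Myh6, which did not pass the adjusted p, held them as well, and its stretch is shown as the counterpart of Myh7.
Thbs4, chr13:92794993-92795027, minus strand: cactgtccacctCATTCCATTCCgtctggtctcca
Dio2, chr12:90739057-90739086, minus strand: gcaattagccagGGAATGtataaaaggctt
Myh6, chr14:54966796-54966825, minus strand: ctttggggaggaGGAATGtgcccaaggact

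Fibrillar and associated collagens rose as a group. Of 16 measured, 14 rose and none fell, 5 were called, the values of 6 did not overlap between AngII and untreated libraries, and the median log2 fold change was 0.71. Over all genes, 9.28% rose, 1.07% were called higher and 1.58% did not overlap. Because the RNA came from whole tissue, a rise of such genes in more numerous fibroblasts and a rise per fibroblast cannot be told apart, and this holds for every cell type below. Col1a1, the main chain of type I collagen, was at 3182 to 6692 (median 3695) in untreated and 5433 to 11443 (median 8961) in AngII libraries, a log2 fold change of 1.03 ± 0.16 (adjusted p = 0.000333). Col3a1, of the fine reticular fibres, was at 7048 to 16902 (median 10004) and 13416 to 26285 (median 19692), a log2 fold change of 0.94 ± 0.16 (adjusted p = 0.000804). Both overlapped at the edges of the groups.

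The larger collagen changes were in genes other than these. Col12a1, which decorates the fibril surface, went from 55.4 to 119 (median 82.3) to 139 to 490.0 (median 289), a log2 fold change of 1.68 ± 0.23 (adjusted p = 0.00014). Col8a1, a short-chain collagen of vessel walls, went from 444 to 1288 (median 709) to 1321 to 3206 (median 2268), a log2 fold change of 1.55 ± 0.20 (adjusted p = 8.64e-05). Neither gene overlapped between treated and untreated libraries. Col8a2 and Col5a2 were called at log2 fold changes of 1.35 and 1.04, and Col15a1, at 0.20, did not pass (adjusted p = 0.191).

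Of 22 measured enzymes that modify, trim or cross-link collagen, 13 rose, none fell and 2 were called (median log2 fold change 0.28). The lysyl oxidases led. Lox, which cross-links collagen and elastin, was at 90.2 to 568 (median 135) in untreated and 285 to 766 (median 554) in AngII libraries, a log2 fold change of 1.60 ± 0.30 (adjusted p = 0.00146), and Loxl2 had one of 1.07 ± 0.16 (adjusted p = 0.000358). For both genes the groups overlapped, and Ctrl 4 was the highest untreated library, with 568 for Lox against 291 in the next. Loxl1 (log2 fold change 0.76), Loxl3 (0.78) and the procollagen peptidase Adamts2 (0.83) rose by less than 2-fold.

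Of 17 elastic fibre genes, 9 rose, 4 of them called, and 1 fell (median log2 fold change 0.40). Ltbp2, a microfibril protein related to those that hold latent TGF-beta, was at 75.8 to 922 (median 168) in untreated and 766 to 2609.7 (median 1409.7) in AngII libraries, a log2 fold change of 2.88 ± 0.38 (adjusted p = 0.000105). Ctrl 4 stood apart from the other untreated libraries, of which the next, Ctrl 3, was at 366. Eln, elastin itself, was at 984 to 3119 (median 1554) and 2362 to 6272 (median 4473), a log2 fold change of 1.37 ± 0.23 (adjusted p = 0.000716). For both genes the AngII and untreated ranges overlapped. The microfibril-associated genes Mfap5, at 777 to 1533 (median 1133) and 1868 to 3372 (median 2502), and Mfap4, at 974 to 2239 (median 1317) and 2452 to 5044 (median 2969), did not overlap and had log2 fold changes of 1.16 and 1.15. The member that fell was Emilin2, a glycoprotein of the elastic fibre interface (log2 fold change -0.74 ± 0.15, adjusted p = 0.00219).

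Matricellular and adhesive glycoproteins signal to cells rather than bear load. Of 24 measured, 9 rose and 7 were called, 2 fell and 1 was called (median log2 fold change 0.38). Without Ctrl 1, AngII 3 or Ovx 3, 1 fell. Thbs4, a thrombospondin of muscle and tendon, was at 2.85 to 94.6 (median 17.8) in untreated and 64.0 to 956 (median 258) in AngII libraries, a log2 fold change of 3.89 ± 0.67 (adjusted p = 0.00085). Cilp, cartilage intermediate layer protein, which cardiac fibroblasts also make, was at 137 to 1510.0 (median 247) and 1114 to 3347 (median 2336), a log2 fold change of 2.84 ± 0.39 (adjusted p = 0.000134). Without Ctrl 4, which again was the highest untreated library, the log2 fold change was 3.15. Its relative Cilp2 went the other way, from 1595 to 5507 (median 4015) to 879 to 2788 (median 1324), a log2 fold change of -1.34 ± 0.26 (adjusted p = 0.00179). The paralogs therefore moved in opposite directions in the same libraries. Tnc, tenascin C, had a log2 fold change of 2.15 ± 0.40 (adjusted p = 0.00158), and Thbs1 one of 1.94 ± 0.39 (adjusted p = 0.00252). Ctgf, a CCN protein and classical product of stretched and TGF-beta-exposed cells, was at 5582 to 25428 (median 8678) and 13418 to 32423 (median 19898), a log2 fold change of 1.02 ± 0.21 (adjusted p = 0.0028).

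Postn, periostin, which activated fibroblasts secrete, did not pass the test (log2 fold change 0.61, adjusted p = 0.0771). It ranged from 1892 to 6085 in untreated and from 2265 to 6403 in AngII libraries. Among 10 small leucine-rich proteoglycans, which coat collagen fibrils, 3 rose and none fell (median log2 fold change 0.095). Aspn, asporin, was called at 1.22 ± 0.15 (adjusted p = 5.84e-05), with 277 to 412 (median 296) in untreated and 436 to 973 (median 757) in AngII libraries. Bgn and Prelp had log2 fold changes of 0.72 and 0.53, and the abundant Dcn (-0.02, adjusted p = 0.939) and Lum (0.06, adjusted p = 0.714) did not pass. 

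Most basement membrane genes rose. Of 20 measured, 12 passed upwards, 2 were called and 1 fell (median log2 fold change 0.30). All 5 of the type IV collagen genes that passed rose. Col4a1 was at 6541 to 15236 (median 8001) in untreated and 15693 to 27619 (median 18568) in AngII libraries, without overlap, a log2 fold change of 1.13 ± 0.16 (adjusted p = 0.000192). Col4a2, transcribed from the same divergent promoter, had a log2 fold change of 1.03 ± 0.16 (adjusted p = 0.000375). The exception was Lamb3, the beta chain of an epithelial laminin, with -0.91 ± 0.17 (adjusted p = 0.00136). Among 15 genes of hyaluronan turnover, Cemip, described above, and the hyaluronan receptor Cd44 (log2 fold change 0.53, adjusted p = 0.0351) rose, the latter in only 5 of the 16 fits with 1 library left out, whereas the synthase Has2 had -0.43 (adjusted p = 0.45). The share of this list past the adjusted p was 13.3%, under the 18.0% of all genes.

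Matrix proteases and their inhibitors moved in both directions, with 11 of 31 higher, 4 lower, 4 called higher and 1 called lower (median log2 fold change 0.23). Adamts8, a secreted metalloprotease, was at 239 to 3985 (median 1142) in untreated and 2195 to 7761 (median 5386) in AngII libraries, a log2 fold change of 2.25 ± 0.37 (adjusted p = 0.000547). Adamtsl2, a related protein without a protease domain, had a log2 fold change of 1.43 ± 0.20 (adjusted p = 0.000153). The inhibitor Timp1 was called at 1.19 ± 0.19 (adjusted p = 0.000485), and the gelatinase Mmp2 rose by less (0.96 ± 0.16, adjusted p = 0.000677). Against them, Mmp9, Adamts7 (-0.66), the membrane-bound Mmp15 (-0.46) and the serine protease Htra1 (-0.30) fell.

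**Figure D4:**
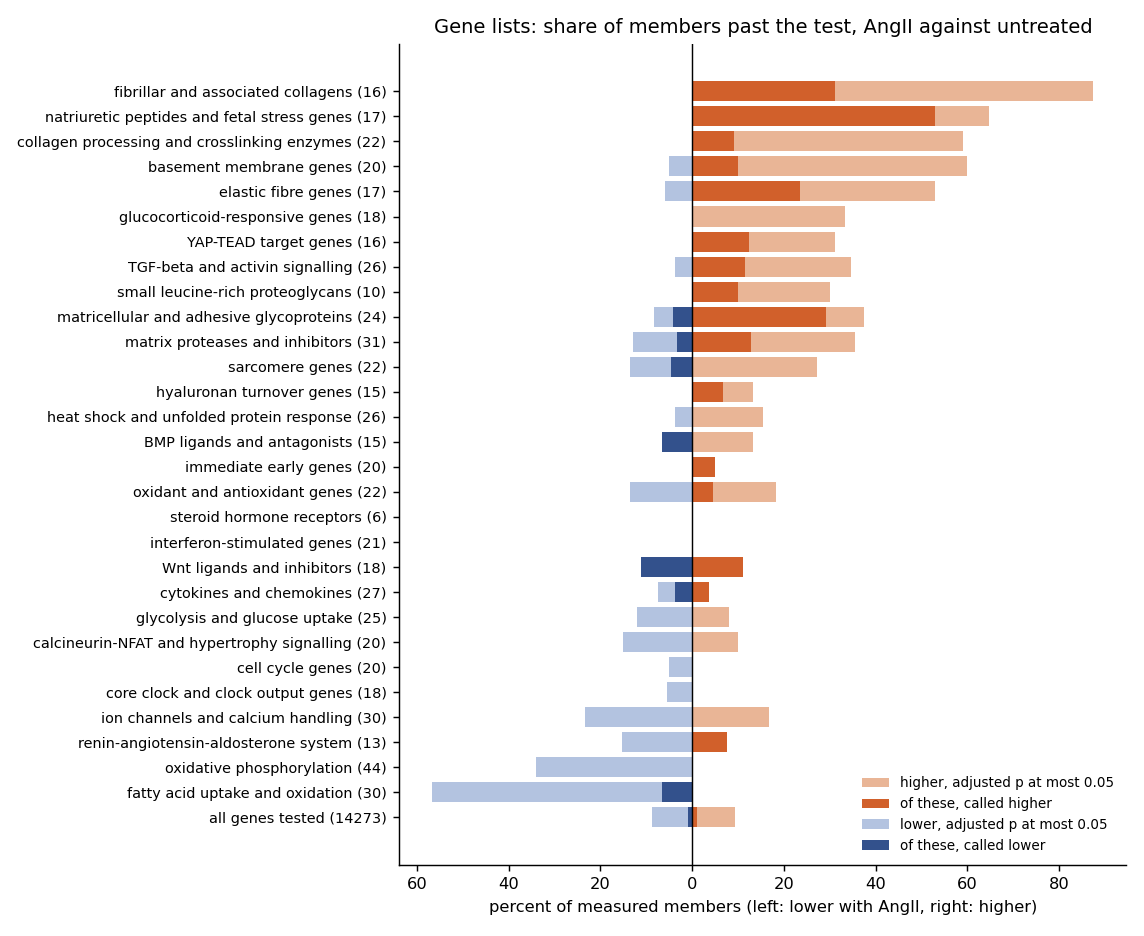
Percent of the measured members of each list that passed the adjusted p, higher with AngII to the right and lower to the left, with the called share in the darker colour and the number of members in parentheses. Collagens (14 of 16 higher) and fatty acid genes (17 of 30 lower) stood at the opposite ends, and the share over all genes, 9.28% higher and 8.74% lower, is given at the bottom.

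Ligands and antagonists of the TGF-beta superfamily were examined by branch. In the TGF-beta and activin list, 9 of 26 rose and 1 fell, with a median log2 fold change of 0.16. The count of falls was 2 without Ctrl 4, AngII 1 or Ovx + AngII 1, 0 without Ctrl 1, Ctrl 3, AngII 3, Ovx 3 or Ovx + AngII 2, and 4 after rescaling to column totals. Among ligands, Inhba, which forms activin A, was at 72.9 to 158 (median 115) in untreated and 174 to 381 (median 222) in AngII libraries, without overlap, a log2 fold change of 1.05 ± 0.18 (adjusted p = 0.000736). Gdf6, a ligand of the BMP branch that the list also holds, had one of 1.51 ± 0.30 (adjusted p = 0.00212), Tgfb2 one of 0.77 ± 0.13 (adjusted p = 0.00085) and Tgfb3 one of 0.57 ± 0.08 (adjusted p = 0.000256). Tgfb1, at 0.17, did not pass (adjusted p = 0.298). The activin antagonist Fstl3 rose with its ligand, from 227 to 456 (median 313) to 681 to 1080.4 (median 779), a log2 fold change of 1.34 ± 0.12 (adjusted p = 4.78e-06). The receptor Tgfbr1 rose by 0.47 (adjusted p = 0.00302).

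In the BMP list, 2 of 15 rose and 1 fell (median log2 fold change 0.072), and 2 fell without Ctrl 4, without Ovx 1 or after rescaling to column totals. With all libraries, 20% of the list passed, near the 18.0% of all genes. Bmp3, a ligand that antagonises other BMPs, was at 301 to 1098 (median 814) in untreated and 58.0 to 304 (median 138) in AngII libraries, a log2 fold change of -2.39 ± 0.34 (adjusted p = 0.00019). The groups touched only at their edges. Bmp6 rose, with a log2 fold change of 0.98 ± 0.17 (adjusted p = 0.000935).

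Secreted Wnt inhibitors of the frizzled-related family moved in opposite directions, with 2 of the 18 Wnt genes higher and 2 lower (median log2 fold change 0.017). The share of the list past the adjusted p, 22.2%, was near the 18.0% of all genes. Sfrp5 was at 35.7 to 1340.0 (median 648) in untreated and 9.45 to 65.3 (median 37.6) in AngII libraries, a log2 fold change of -3.85 ± 0.58 (adjusted p = 0.000295). Its relative Frzb rose from 119.5 to 502 (median 220.0) to 495 to 1119.6 (median 668), a log2 fold change of 1.65 ± 0.21 (adjusted p = 9.17e-05), and Sfrp2 had one of 1.26 ± 0.28 (adjusted p = 0.00474). In each of the 3 genes the ranges of the treated and untreated libraries overlapped. The Wnt agonist Rspo3 was called at -1.20 (adjusted p = 0.0397), but it passed in 4 of the 16 fits with 1 library left out, those without Ctrl 2, Ctrl 4, AngII 2 or AngII 4, and elsewhere the adjusted p was at most 0.0829.

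In the renin-angiotensin system itself, 1 of 13 measured genes rose and 2 fell (median log2 fold change -0.062), and 4 fell without Ctrl 4. With all libraries, 23.1% of the list passed, near the 18.0% of all genes. Ace, the converting enzyme that makes AngII (chromosome 11, 105967948 to 105989964), was at 2006 to 5064 (median 2475) in untreated and 3887 to 7770.0 (median 5863) in AngII libraries, a log2 fold change of 1.005 ± 0.12 (adjusted p = 5.25e-05). Agtr1a, the main type 1 receptor of rodents (chromosome 13, 30336356 to 30382867), was at 259 to 437 (median 358) and 157 to 296 (median 195), a log2 fold change of -0.79 ± 0.14 (adjusted p = 0.000803). Enzyme and receptor thus changed in opposite directions, with exact permutation p-values of 0.000408 and 0.00122. Enpep, the aminopeptidase that trims AngII to angiotensin III, fell by 0.28 on the log2 scale (adjusted p = 0.0166). Mas1, the receptor of angiotensin-(1-7), had a log2 fold change of -1.48 and missed the threshold (adjusted p = 0.0521). The type 2 receptor Agtr2 was above 0 only in Ctrl 3 and Ovx 1, at 4.94 and 1.13, and Agtr1b only in Ctrl 4 and Ovx + AngII 4, at 1.04 and 1.004.

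Few genes that respond acutely to growth signals passed after 4 weeks. Of 20 immediate early genes 1 rose, the nuclear receptor Nr4a3, and it passed in only 7 of the 16 fits with 1 library left out (log2 fold change 1.07, adjusted p = 0.0378, at most 0.0816 in those fits). Fos (-0.75, adjusted p = 0.26) and Egr1 (-0.52, adjusted p = 0.402) did not pass. Among 16 target genes of the TEAD coactivator YAP, 5 rose, namely Ankrd1, Ctgf, Myof (0.41), Ajuba (0.32) and Axl (0.20), and 3 rose after rescaling to column totals. Of 20 genes of calcineurin signalling and hypertrophy, 5 passed (25%, against 18.0% of all genes). The 2 that rose were no longer past the threshold without Ovx 4, and 1 rose after rescaling to column totals. The 3 that fell were the transcription factor Mef2a (-0.33, adjusted p = 0.00264), the phosphatase subunit Ppp3cb (-0.20, adjusted p = 0.00878) and Nfatc2 (-0.35, adjusted p = 0.0174).

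Sarcomere genes moved in both directions. Of 22 measured, 6 rose and 3 fell (median log2 fold change -0.001), and 6 fell without Ctrl 4. Actc1, the cardiac actin, was at 105302 to 167683 (median 130193) in untreated and 163765 to 229473 (median 185118) in AngII libraries, a log2 fold change of 0.47 ± 0.12 (adjusted p = 0.0127). Mybpc3 (0.45), Myom1 (0.44) and Actn2 (0.40), which organise thick filaments, the M-band and the Z-disc, rose to a like extent. Tnni3, the inhibitory subunit of cardiac troponin, fell by 0.44 (adjusted p = 0.0122), and Tmod4, above, was the only called member. The atrial light chain Myl7 did not pass (log2 fold change -0.34, adjusted p = 0.0783).

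Of 30 ion channel and calcium handling genes, 5 rose and 7 fell (median log2 fold change -0.16), none was called, and 12 fell without Ctrl 4. Without Ctrl 1, AngII 3, Ovx 3, Ovx + AngII 2 or Ovx + AngII 4, 3 rose. The clearest change was in Kcnj3, a subunit of the acetylcholine-gated potassium channel that slows the atria (chromosome 2, 55411798 to 55598145). It fell from 12988 to 18637 (median 16407) to 9073 to 11418 (median 9779), without overlap, a log2 fold change of -0.71 ± 0.07 (adjusted p = 1.61e-05). Other potassium channel genes fell with it, namely Kcnq1 (-0.46), Kcnk3 (-0.45), Kcnj2 (-0.44) and Kcnd2 (-0.44), each past the adjusted p in all 16 fits with 1 library left out. In the other direction, the ultrarapid channel gene Kcna5 rose by 0.71 (adjusted p = 0.0195) and the calcium store protein Casq2 by 0.43 (adjusted p = 0.00414). The calcium channel gene Cacna1c (0.10, adjusted p = 0.312) did not pass.

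Genes of fatty acid use fell together. Of 30 measured, 17 fell, none rose, and 29 had a log2 fold change below 0, with a median of -0.31. Among the fits with 1 library left out, between 13 and 24 fell, and the highest count was that without Ctrl 4. Ucp3, a mitochondrial carrier induced by fatty acids, was at 128 to 788 (median 414) in untreated and 60.9 to 187 (median 122) in AngII libraries, a log2 fold change of -1.52 ± 0.35 (adjusted p = 0.0057). Acot1, an acyl-CoA thioesterase, was at 65.2 to 148 (median 116) and 26.4 to 80.7 (median 44.5), a log2 fold change of -1.26 ± 0.23 (adjusted p = 0.00124). These were the 2 called members, and the ranges of both overlapped. The beta-oxidation enzymes Hadh (-0.52), Acaa2 (-0.51) and Acadm (-0.48) changed by less, and the transporter Cd36 (-0.05, adjusted p = 0.795) did not pass.

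Oxidative phosphorylation genes also lay mostly below 0. Of 44 subunit genes, 15 fell, none rose or was called, and 41 had a log2 fold change below 0 (median -0.21). The count rested on single libraries, since 28 fell without Ctrl 4, and 6 fell without Ctrl 1, without Ovx + AngII 3 or without Ovx + AngII 4. It was 31 after rescaling to column totals. Cox7a1, the muscle form of a cytochrome oxidase subunit, was at 3972 to 7661 (median 6487) in untreated and 2943 to 6041 (median 3852) in AngII libraries (log2 fold change -0.61 ± 0.14, adjusted p = 0.00608). Sdha, the flavoprotein of succinate dehydrogenase, had -0.37 ± 0.08 (adjusted p = 0.00566). Of 25 glycolysis genes, 2 rose, namely Pgam1 (0.41) and the platelet-type phosphofructokinase Pfkp (0.39), and 3 fell, namely the muscle-type Pfkm (-0.35), the insulin-responsive transporter Slc2a4 (-0.36) and the kinase Pdk2 (-0.31). The phosphofructokinase genes thus moved in opposite directions, Pfkm from 13121 to 18839 to 10139 to 13032, without overlap. The share of the glycolysis list past the adjusted p, 20%, was near the 18.0% of all genes.

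Few heat shock and unfolded protein genes passed. Of 26 measured, 4 rose and 1 fell (median log2 fold change 0.057), a share of 19.2% near the 18.0% of all genes, and none fell without Ctrl 1. The risers were 3 small heat shock proteins of muscle and Hspa1b. Hspb7 was at 26348 to 40818 (median 32677) in untreated and 44067 to 68301 (median 45924) in AngII libraries, without overlap (log2 fold change 0.58 ± 0.11, adjusted p = 0.00128), and Hspb1 had 0.83 ± 0.14 (adjusted p = 0.000597). Of 22 oxidant and antioxidant genes, 4 rose and 3 fell, 7 rose without Ctrl 4 and 5 fell without Ctrl 2. Nox4, the NADPH oxidase that makes hydrogen peroxide constitutively, was called, at 57.0 to 105 (median 73.1) and 126 to 414 (median 166), without overlap, a log2 fold change of 1.30 ± 0.20 (adjusted p = 0.000333).

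Inflammatory genes showed few changes. Of 27 cytokines, chemokines and their receptors, 1 rose and 2 fell, and without Ctrl 4 there were 4 that rose. Only 1 fell without AngII 3, Ovx 2, 3 or 4, or Ovx + AngII 1, 2 or 3. Ccl11, the eosinophil chemoattractant eotaxin (chromosome 11, 82057832 to 82062955), was at 62.4 to 99.6 (median 81.4) in untreated and 0.766 to 33.1 (median 14.98) in AngII libraries, a log2 fold change of -2.58 ± 0.43 (adjusted p = 0.000655). Every AngII library lay below every untreated one. None of the 21 interferon-stimulated genes passed in limma with all libraries (2 were higher at an unadjusted p under 0.05), and 6 rose without Ctrl 4. None of 12 macrophage markers passed (2 higher at an unadjusted p under 0.05), and 3 rose without Ctrl 4. Ctrl 4 was the library with the highest summed macrophage markers, and the part of that difference in these results was not tested.

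Of 18 glucocorticoid-responsive genes 6 rose, among them the cell cycle inhibitor Cdkn1a (log2 fold change 0.97 ± 0.21, adjusted p = 0.00489), the metallothionein Mt2 (0.88 ± 0.23, adjusted p = 0.0115) and the mTORC1 inhibitor Ddit4 (0.83 ± 0.16, adjusted p = 0.00193). Of 20 cell cycle genes, Pcna fell by 0.22 (adjusted p = 0.0129) and none rose, and 2 fell without AngII 4. The clock list had a median log2 fold change of 0.14 in mice with ovaries and -0.46 in Ovx mice. In the average, 1 of its 18 genes fell and none rose. The count was 4 without Ctrl 4 and 0 without Ctrl 1, 2 or 3, AngII 3, Ovx 2 or Ovx + AngII 3. Arntl (0.19, adjusted p = 0.853), Clock (0.19, adjusted p = 0.464), Per2 (0.05, adjusted p = 0.93), Ciart (-0.29, adjusted p = 0.748), Dbp (-0.38, adjusted p = 0.522) and Cry2 (-0.38, adjusted p = 0.0885) did not pass. Exact permutation with all libraries gave 0.0433 for Cry2, and 0.149 or more for Arntl, Clock, Per2, Ciart, Dbp and the clock gene Nr1d1. Without Ctrl 4, Cry2 (-0.48, adjusted p = 0.0101) and Nr1d1 (-0.31, adjusted p = 0.0467) passed in limma. Arntl ranged over 72.7 to 742 in untreated and 98.7 to 632 in AngII libraries, so that the spread within each side exceeded the difference between them. Its fold change was 0.52 in mice with ovaries and 2.47 in Ovx mice, and no gene differed between backgrounds past the adjusted p (below). None of the 6 steroid receptor genes passed in limma (1 was lower at an unadjusted p under 0.05), although 1 fell without Ctrl 4, without Ctrl 2 or after rescaling to column totals. The estrogen receptor gene Esr1 was at 98.7 to 156 and 88.5 to 244 (log2 fold change -0.02, adjusted p = 0.961).

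Cell type markers were read as sums and as single genes. Of 10 activated fibroblast markers, 8 rose and 6 were called (median log2 fold change 1.15), and of 12 general fibroblast markers 4 rose and 1 fell (median 0.048). The shares past the adjusted p were 80% and 41.7%, both above the 18.0% of all genes, of which 9.28% rose and 1.07% were called higher. Summed values of the activated markers were 4886 to 11376 in untreated and 8023 to 15350 in AngII libraries, the highest untreated library being Ctrl 4, and several members (Thbs4, Cilp, Acta2 and Tagln) also stand in other lists here. Cthrc1, a collagen triple helix repeat protein of activated fibroblasts, was at 1.94 to 13.7 (median 6.24) and 10.01 to 64.0 (median 23.9), a log2 fold change of 1.81 ± 0.37 (adjusted p = 0.00293). Meox1, a transcription factor of activated fibroblasts, had one of 1.28 ± 0.23 (adjusted p = 0.00119).

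Of 12 smooth muscle and pericyte markers, 7 rose and 3 were called (median log2 fold change 0.41). Their sums did not overlap, at 35847 to 54588 in untreated and 55178 to 92971 in AngII libraries, but desmin (Des), which cardiomyocytes also make, was 47.2% to 71.2% of each. Without it the sums were 17205 to 23026 and 22985 to 27169 and overlapped. Cnn1, calponin of smooth muscle, was at 24.3 to 169 (median 44.4) and 78.7 to 909.9 (median 644), a log2 fold change of 3.42 ± 0.45 (adjusted p = 0.000116). Tagln, transgelin, was at 284 to 511 (median 389) and 533 to 2174 (median 828), without overlap, at 1.23 ± 0.22 (adjusted p = 0.00104). Des had 1.13 ± 0.15 (adjusted p = 8.64e-05), and Acta2, smooth muscle actin, 0.55 ± 0.11 (adjusted p = 0.0021).

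Among endothelial markers 5 of 12 rose, none fell, and all 12 had log2 fold changes above 0 (median 0.20). The count was 8 without Ctrl 4 and 3 after rescaling to column totals or without Ctrl 1, Ovx 1, Ovx + AngII 1 or Ovx + AngII 3. Ptprb had the clearest change (0.50 ± 0.07, adjusted p = 0.00019), and the junction genes Cdh5 (0.31) and Pecam1 (0.23) changed less. None of the 11 lymphocyte markers, 5 endocardial markers or 9 erythroid markers passed in limma, and at an unadjusted p under 0.05 there were 1, 0 and 0. The erythroid sum ranged from 11194 to 197820 in untreated and from 19889.5 to 313796 in AngII libraries. All 9 erythroid markers had log2 fold changes above 0 (median 0.86), 1 rose without Ctrl 4, and 4 of the 8 then tested rose when both Ctrl 4 and AngII 4 were left out. The part of blood in the other results was not tested.

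In most of the remaining marker lists, a single gene passed. The share of tested members past the adjusted p was 22.2% for atrial cardiomyocytes, 42.9% for skeletal muscle and 14.3% for monocytes and neutrophils. It was 20% for brown adipocytes, 8.33% for white adipocytes, 20% for mast cells and 11.1% for epicardium and mesothelium, against 18.0% of all genes. Of 9 atrial cardiomyocyte markers, 2 rose and none fell (median log2 fold change -0.076), and 3 fell without Ctrl 4. Of 7 skeletal muscle markers tested, Acta1 and Tnnt3, described above, were called higher and 1 fell. The sum of the 10 skeletal muscle markers was 13158.5 to 20207 in untreated and 7378 to 14894 in AngII libraries. Its most abundant members set this sum, and it lay lower with AngII although 5 of the 7 had log2 fold changes above 0 (median 0.37). Of 7 monocyte and neutrophil markers, the receptor Ccr2 rose (0.63, adjusted p = 0.00803), and 5 had log2 fold changes below 0 (median -0.015). Of 5 brown adipocyte markers, Dio2, a thyroid hormone-activating deiodinase, rose (2.68 ± 0.41, adjusted p = 0.000363), and 3 lay below 0 (median -0.14), of which 1 fell without Ctrl 4 or AngII 4 and 3 fell after rescaling to column totals. Of 12 white adipocyte markers, Lipe, the hormone-sensitive lipase, fell by 0.63 (adjusted p = 0.00808), 11 lay below 0 (median -0.36), and 2 fell without Ctrl 4 or without Ctrl 2. The median of this list was 0.14 in mice with ovaries and -1.04 in Ovx mice, so the average describes neither background. Mcpt4, a mast cell protease (1.26, adjusted p = 0.035), and Krt8, a mesothelial keratin (0.47, adjusted p = 0.041), passed in 8 and 5 of the 16 fits with 1 library left out.

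The responses of mice with and without ovaries entered the average with equal weight and were compared in a fit of the 4 group means. All 288 called genes had the same sign in both backgrounds, which the averaging in part requires. Genes called higher had a median log2 fold change of 1.23 in mice with ovaries and 1.69 in Ovx mice, and genes called lower one of -1.09 and -1.51. Without Ctrl 4, the medians in mice with ovaries were 1.32 and -1.26. Of the 288, 88 passed the adjusted p in both contrasts, 133 only in the Ovx contrast, 9 only in the contrast with ovaries and 58 in neither. The contrast with ovaries gave 83 called genes in that fit, 222 without Ctrl 4 and 147 without AngII 4, and the Ovx contrast gave 333.

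The difference between the responses was tested gene by gene, and no gene passed in limma (smallest adjusted p = 0.838). At an unadjusted p under 0.05 there were 828 genes (5.8% of all) and 36 of the 288 called genes (12.5%). The smallest p-values belonged to Tom1l1, Thbs4 and Pdxk. Thbs4, for example, had a log2 fold change of 1.76 with ovaries and 6.02 without them, and Acta1 one of 3.34 and 7.87, whereas the values of Cemip (3.24 and 3.05) and Ccl11 (-2.63 and -2.52) were close together. The difference between the responses (Ovx minus with ovaries) was 4.27 ± 0.90 (SE) for Thbs4 and 4.53 ± 1.38 for Acta1, and -0.18 ± 0.73 for Cemip. A difference was therefore not shown for any gene, and for genes such as Cemip the error left room for one.

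**Figure D5:**
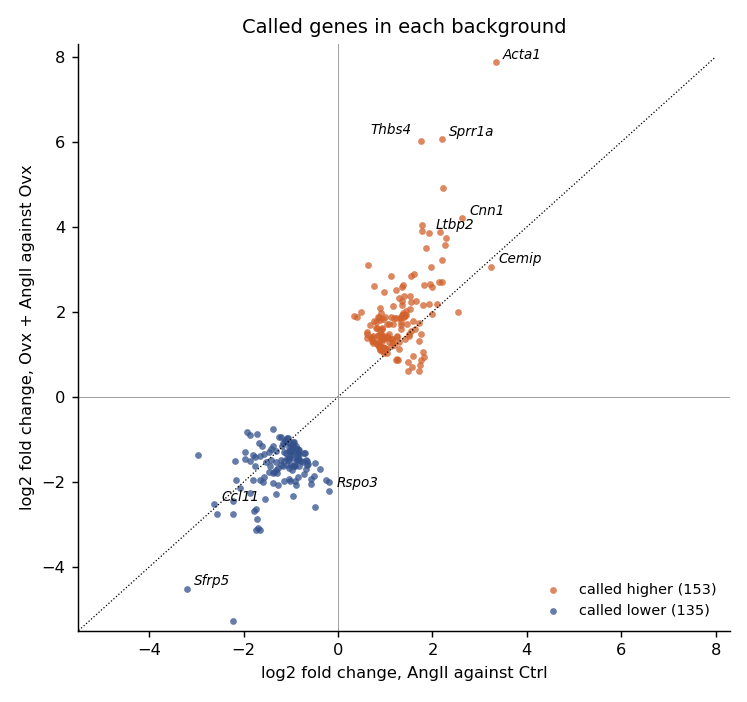
Log2 fold change of each of the 288 called genes in mice with ovaries (horizontal axis) and in Ovx mice (vertical axis), with the dotted line marking equal responses. All 288 points lay in the quadrants of equal sign, and Acta1 (3.34 and 7.87) and Thbs4 (1.76 and 6.02) stood far above the line.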

How the data were processed

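Left atrial RNA from 16 mice was sequenced by the authors with a stranded mRNA kit. Per the labels and the study's methods, the authors aligned reads with STAR, quantified them with Salmon on mm10 and ran DESeq2 in BaseSpace, with versions not given in the sources used here. The deposited values are a normalised signal per gene (counts divided by size factors). Between 76.5% and 90.7% of low values lay within 0.1 of a whole multiple of 1 read, so reads were not recovered and no count test was run. The table held 24972 genes, 5997 at 0 throughout, and 14 symbols turned into dates (0.0721% of all values).

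Genes with a mean of at least 10 (14273) were fitted as log2(value + 1) with limma 3.58.1 in R 4.3.3 (additive in AngII and ovariectomy, eBayes with trend, two-sided, Benjamini-Hochberg adjustment). This scale understates changes of low genes. The thresholds for a call, from the study's methods, were 0.05 for the adjusted p and 1 for the size of the log2 fold change. Mice were not numbered in the labels, and replicate numbers only name libraries. Where nothing says otherwise, p-values measure the spread between these samples.

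Named were the 12 largest changes each way among calls without overlap and with means from 50 upwards, the smallest p-values in all, among genes with a mean of at least 1000 and of the difference between backgrounds, up to 4 called members of each list, and fixed genes. Of these 124 genes, 110 passed. Predicted symbols (28 called) were not named, and some items are not reported here. Other list members were named after their values were seen. Members and lists were chosen with earlier results of these data known. Gene positions and promoters are from RefSeq, on mm10 (GRCm38). The fit was tested on simulated data. Alternatives were other pseudocounts, filters, scalings, weights, single backgrounds and each library left out.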

Additional observations from a re-analysis of the deposited data

Results flagged for a closer look

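Among 144 groups of 4 libraries (33 genes and 3 library measures), 9 held 1 library whose gap to the nearest of the others, divided by the range of the group, exceeded Dixon's critical value. Chance alone flags about 1 group in 20. Cemip was low in AngII 4, at 36.7 against 158 to 178 in the other AngII libraries (gap ratio 0.858). Ovx 1 was high for Lrp8, at 434 against 206 to 236 (0.868), and for Tnfrsf12a, at 498 against 281 to 304 (0.893). Col12a1 was high in Ovx 2, at 82.5 against 55.4 to 57.5 (0.923), and Mfap5 was high in Ctrl 4, at 1533 against 1120.2 to 1190.5 (0.83).

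The share of haemoglobin genes was 0.970% in Ctrl 4 against 0.061% to 0.211% in the other Ctrl libraries (0.835), and 1.46% in AngII 4 against 0.154% to 0.349% (0.85). The mean correlation with the own group was 0.945 in Ctrl 4 against 0.963 to 0.966 (0.878), and 0.978 in Ovx 1 against 0.980 in each of the others (0.943). The part of blood content in any gene's change was not tested.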

How the results depend on the processing

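The count of called genes (288) was 176 with a mean of at least 50, 774 with a fold change of at least 1.5, and 2 in mice with ovaries alone, where 2 genes passed the adjusted p in place of 2572. The fit of mice with ovaries alone holds Ctrl 4 and was not repeated without it. With array weights 4003 passed. Leaving out each library in turn gave 243 to 377 called and 1970 to 3697 past the adjusted p, and 0 to 1 genes differing between backgrounds (1 without AngII 1). The other settings tried kept both counts within 1.5 times. Without the 2 libraries richest in haemoglobin, 400 were called. In these fits the cause was not tested. Of the 110 named genes that passed, all kept their direction in every fit. None passed in mice with ovaries alone, 7 were lost in Ovx mice alone, 5 without an ovariectomy term, 4 with no filter, 3 with precision weights, 1 with robust eBayes, 1 with column totals, and 0 to 6 when 1 library was left out. No paired analysis was possible because the labels give no replicate numbers shared between groups.

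Signs turned only for genes that did not pass. Without the 2 libraries richest in haemoglobin Esr1 was 0.076 and Per2 -0.12. In mice with ovaries alone Arntl was -0.93, Ciart 0.64, Dbp 0.24, Tom1l1 -0.25 and Pdxk 0.19. In Ovx mice alone Per2 was -0.53. Array weights gave -0.15 for Per2, and precision weights 0.017 for Ciart and -0.012 for Tom1l1. Tom1l1 was -0.013 with upper-quartile scaling and -0.031 with column totals. With 1 library left out, log2 fold changes spanned -0.15 to 0.078 for Esr1, -0.11 to 0.48 for Arntl, -0.10 to 0.23 for Per2 and -0.030 to 0.031 for Tom1l1.

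The step of 1 read implied 16007134 to 25102564 reads assigned to genes per library, an estimate. This is lower than the sequenced depth that the study reports for its left atrial libraries. Genes near 0, such as Agtr2, were not measurable with these counts. All list counts without Ctrl 4 and with each library left out were added after the data had been seen.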
